A study of Homo sapiens with 4 samples.

Results

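Bile acid and organic ion carriers were followed in hepatocellular carcinoma cells before and after sonodynamic therapy (SDT), in which ultrasound activates a sensitizer taken up by the cell. The carriers were protein-coding genes of the GENCODE 29 annotation whose symbol begins with SLC10A, SLC22A, SLC47A or SLCO. The 43 carriers reported here, of 19951 protein-coding genes, comprise 7 in SLC10A, 22 in SLC22A, 2 in SLC47A and 12 in SLCO. All but SLC22A18AS, an antisense gene that shares only the symbol, are carriers by family.

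Both cell lines, HepG2 and Huh7, are long-established human liver cancer lines. Group A was untreated HepG2 cells, and group B was HepG2 cells after SDT. Group C was untreated Huh7 cells, and group D was Huh7 cells after SDT. In the treated groups the cells received targeted nanobubbles filled with C3F8 gas that carried the sonosensitizer hematoporphyrin monomethyl ether (HMME) and the metabolic inhibitor lonidamine (LND), and were exposed to low-frequency ultrasound. Drug, bubble and ultrasound were applied together in both treated groups, so their parts cannot be told apart.

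Total RNA was sequenced from 4 libraries, 1 for each group, so no value here has a replicate error and no test was made. The values are lists of genes that the authors called differentially expressed, B vs. A for HepG2 and D vs. C for Huh7. A gene is called listed where its identifier stands under at least 1 Gene Ontology (GO) term of a comparison. The lists carry neither level nor direction, so a listed carrier differed between the 2 libraries in one direction or the other. A carrier in neither list was not called, was not tested or had no GO term, and these cases cannot be told apart. A carrier listed in 1 cell line only has GO terms, so in the other cell line it was not called or not tested. The depth of the libraries was not used here, and cell type markers could not be read from lists.

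Hepatocytes take up bile acids, hormones, drugs and other organic ions from blood through carriers of the SLC10A, SLC22A and SLCO families on their sinusoidal side. Bile acids are made from cholesterol in the hepatocyte, pass into bile through ATP-driven pumps, and return from the ileum through a sodium-coupled SLC10A carrier. The same families serve the kidney, brain barriers and testis, while the SLC47A carriers extrude organic cations in exchange for protons.

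Of the 43 carriers, 15 (34.9%) were listed in HepG2, where 23.9% of all protein-coding genes were listed. In Huh7, 17 carriers (39.5%) were listed, beside 21.9% of all protein-coding genes. Both cell lines listed 11 carriers (25.6%), beside 11.4% of all protein-coding genes. These 11 were 73.3% of the carriers listed in HepG2 and 64.7% of those listed in Huh7. For all protein-coding genes the shared genes made up 47.7% of the HepG2 list and 52.2% of the Huh7 list. Of the rest, 4 carriers were listed in HepG2 only, 6 in Huh7 only, and 22 in neither cell line.

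The 11 carriers of both lists were SLC10A1, SLC10A6, SLC22A9, SLC22A13, SLC22A14, SLC22A16, SLC22A25, SLC47A2, SLCO1C1, SLCO2B1 and SLCO3A1. HepG2 alone listed SLC10A2, SLC22A15, SLC22A23 and SLCO2A1. Huh7 alone listed SLC22A2, SLC22A4, SLC22A10, SLCO1B7, SLCO4A1 and SLCO4C1. Each of the 4 families thus had at least 1 carrier in the shared group.

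**Figure D1:**
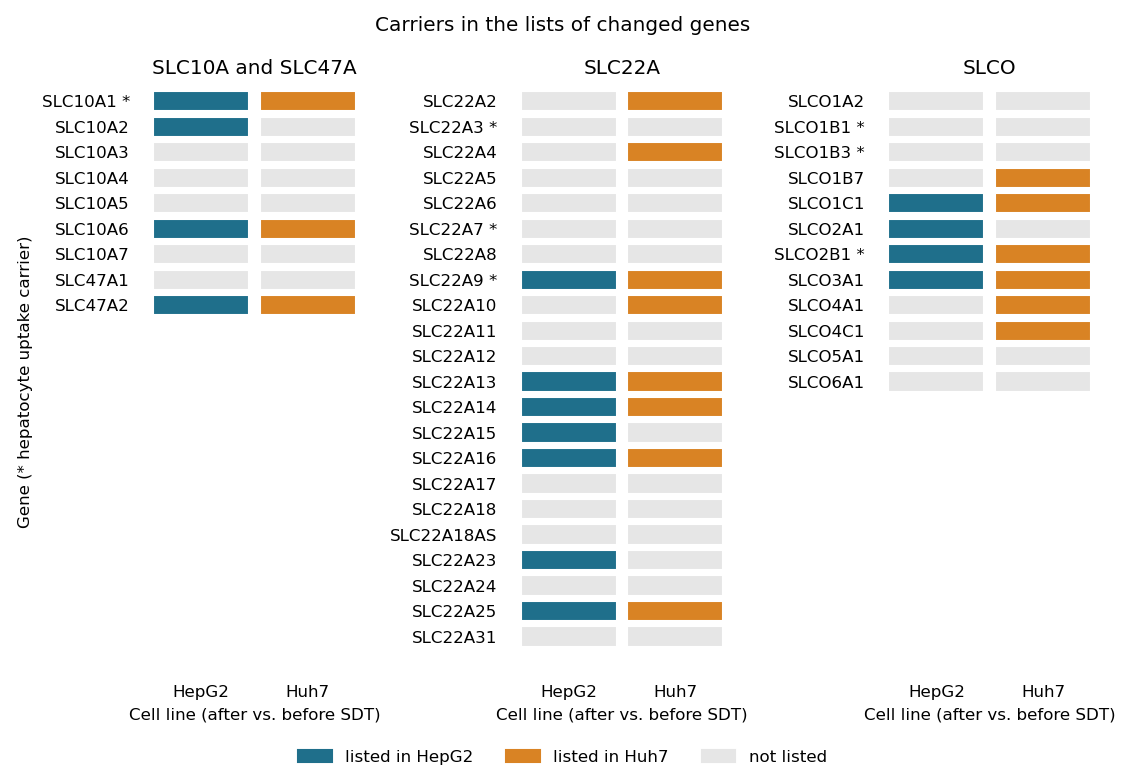
Each row is 1 gene of the SLC10A, SLC47A, SLC22A or SLCO family and each column 1 cell line, with a coloured tile where the gene was listed after vs. before SDT and a grey tile where it was not. HepG2 lists 15 of the 43 genes and Huh7 17, and stars mark the 7 hepatocyte uptake carriers.

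The hepatocyte uptake carriers described here were 7 in number: SLC10A1, SLC22A3, SLC22A7, SLC22A9, SLCO1B1, SLCO1B3 and SLCO2B1. HepG2 and Huh7 each listed 3 of them (42.9%), and these were the same 3 genes. Of all protein-coding genes, HepG2 listed 23.9%, Huh7 21.9% and both 11.4%. SLC10A1 (ENSG00000100652), the sodium taurocholate cotransporting polypeptide that brings conjugated bile acids into the hepatocyte and serves hepatitis B virus as its entry receptor, was listed in both. SLC22A9 (ENSG00000149742), the organic anion transporter OAT7, was listed in both as well. SLCO2B1 (ENSG00000137491), an organic anion transporting polypeptide (OATP) with a broad tissue range that carries steroid sulfates and statins, was the third carrier listed in both.

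SLC22A3, the more widely expressed cation transporter OCT3, was listed in neither cell line. SLC22A7, the anion transporter OAT2, was likewise in neither list. The liver OATPs SLCO1B1 and SLCO1B3, which clear bilirubin, bile acids and statins from portal blood, were also missing from both lists. Of the 7 hepatocyte uptake carriers, 4 were thus in neither list.

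The promoters of the liver bile acid carriers SLC10A1, SLCO1B1 and SLCO1B3 are printed with that of SLC10A2, the bile acid carrier of the ileum, because these 4 genes take up bile acids and fell into 3 different listing patterns. Each window runs from 250 bases before to 50 bases after the RefSeq start in build GRCh38.p14, 5′ to 3′ on the strand of the gene. SLC10A1 lies on the minus strand at chr14:69797192-69797491 and SLC10A2 on the minus strand at chr13:103066368-103066667. SLCO1B1 lies on the plus strand at chr12:21130944-21131243 and SLCO1B3 on the plus strand at chr12:20810455-20810754. Capitals mark matches, on either strand, to AGGTCA (a core of nuclear receptor sites) or TATAAA (letters of the TATA box). Matches were marked at any place in the window.
SLC10A1: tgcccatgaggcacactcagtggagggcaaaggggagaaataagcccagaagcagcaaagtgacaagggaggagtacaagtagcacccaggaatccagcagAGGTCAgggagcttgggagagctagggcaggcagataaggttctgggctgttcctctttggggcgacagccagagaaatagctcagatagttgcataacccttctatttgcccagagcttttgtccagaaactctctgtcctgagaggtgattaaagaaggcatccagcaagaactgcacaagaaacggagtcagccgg
SLC10A2: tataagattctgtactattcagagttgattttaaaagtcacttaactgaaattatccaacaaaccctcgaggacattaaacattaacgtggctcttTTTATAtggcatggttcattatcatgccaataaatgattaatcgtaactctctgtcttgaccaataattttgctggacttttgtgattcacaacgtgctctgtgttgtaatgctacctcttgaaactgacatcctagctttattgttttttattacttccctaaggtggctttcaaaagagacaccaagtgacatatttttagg
SLCO1B1: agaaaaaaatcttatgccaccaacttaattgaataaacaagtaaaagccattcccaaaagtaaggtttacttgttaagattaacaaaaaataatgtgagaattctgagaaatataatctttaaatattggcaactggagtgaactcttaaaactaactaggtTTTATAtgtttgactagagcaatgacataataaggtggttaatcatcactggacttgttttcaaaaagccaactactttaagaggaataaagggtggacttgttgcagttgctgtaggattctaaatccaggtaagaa
SLCO1B3: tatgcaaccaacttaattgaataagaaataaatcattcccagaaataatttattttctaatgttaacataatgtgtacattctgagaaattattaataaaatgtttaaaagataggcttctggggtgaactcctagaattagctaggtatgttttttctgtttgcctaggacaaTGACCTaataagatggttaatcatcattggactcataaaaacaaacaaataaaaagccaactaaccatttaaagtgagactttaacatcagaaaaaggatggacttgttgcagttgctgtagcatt

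In SLC10A1 the AGGTCA match began 149 bases before the start. In SLC10A2 a TATAAA match on the opposite strand began 154 bases before the start. SLCO1B1 held TATAAA on the opposite strand at 88 bases before its start. SLCO1B3 held AGGTCA on the opposite strand at 76 bases before its start. The SLCO1B1 and SLCO1B3 windows were identical at 72% of bases in a global alignment, whereas the other 5 pairs among these 4 windows ranged from 46.3% to 50.3%. The 2 unlisted OATP promoters thus resembled each other more than either resembled the SLC10A promoters.

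RefSeq promoters were matched for 27 of the 43 carriers, as 33 windows of 300 bases. AGGTCA stood in 5 of the 33 windows (15.2%), beside 13.8% of all promoters, with 3 of 19 among listed and 2 of 14 among unlisted carriers. Its listed holders were SLC10A1, SLC22A14 and SLCO3A1. TATAAA stood in 6 windows (18.2%), beside 11.5% of all promoters, with 3 of 19 among listed and 3 of 14 among unlisted carriers. Windows alike in sequence, such as those of SLCO1B1 and SLCO1B3, are not independent, and a match in letters is not a bound site.

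In the SLC10A family 3 of 7 genes were listed in HepG2 (42.9%), 2 in Huh7 (28.6%) and 2 in both, beside 23.9%, 21.9% and 11.4% of all protein-coding genes. Next to SLC10A1, SLC10A6 was listed in both cell lines; it encodes a sodium-dependent carrier of sulfated steroids. SLC10A2, the apical sodium-dependent bile acid transporter of ileum, renal tubule and bile duct cells, was listed in HepG2 only. SLC10A3 was in neither list, and its substrate is not known. SLC10A4, which resides in synaptic vesicles of neurons, was in neither list. SLC10A5, an orphan expressed in liver and kidney, was in neither list. SLC10A7, a protein of the secretory pathway needed for skeletal growth, was in neither list. The GO term bile acid:sodium symporter activity holds 4 background genes, of which HepG2 listed 3 (SLC10A1, SLC10A2 and SLC10A6) and Huh7 2 (SLC10A1 and SLC10A6). This term was kept because it held 2 or more listed carriers.

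Of the 2 SLC47A genes, SLC47A2 was listed in both cell lines and SLC47A1 in neither. SLC47A1 encodes MATE1, which extrudes cations across the canalicular membrane of liver and the brush border of kidney. SLC47A2 encodes MATE2 and is known mainly from the kidney. Their proteins were identical at 48.3% of residues, and no 75-base stretch of either gene's transcripts was found in another gene.

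The SLC22A family had 7 of 22 genes listed in HepG2 (31.8%), 8 in Huh7 (36.4%) and 5 in both (22.7%), beside 23.9%, 21.9% and 11.4% of all protein-coding genes. Besides SLC22A9, the genes of both lists were SLC22A13, SLC22A14, SLC22A16 and SLC22A25. SLC22A13 encodes OAT10, a carrier of nicotinate and urate in kidney, and SLC22A14 is known from sperm. SLC22A16 encodes a carnitine carrier of testis that also takes up doxorubicin, and SLC22A25 is a liver-expressed relative of SLC22A9. HepG2 alone listed SLC22A15, a carrier of zwitterions such as ergothioneine, and SLC22A23, an orphan. Huh7 alone listed the kidney cation transporter SLC22A2 (OCT2), the ergothioneine carrier SLC22A4 (OCTN1) and SLC22A10. In neither list were SLC22A3, SLC22A5 (the carnitine carrier OCTN2), SLC22A6, SLC22A7, SLC22A8, SLC22A11, SLC22A12, SLC22A17, SLC22A18, SLC22A18AS, SLC22A24 and SLC22A31, 12 genes in all.

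Kidney carriers made up 9 of the genes, namely SLC22A2, SLC22A6, SLC22A8, SLC22A11, SLC22A12, SLC22A13, SLC47A1, SLC47A2 and SLCO4C1. HepG2 listed 2 of these 9 (22.2%), SLC22A13 and SLC47A2, and Huh7 listed the same 2 with SLC22A2 and SLCO4C1, 4 in all (44.4%), beside 23.9% and 21.9% of all protein-coding genes. The classical renal anion exchangers SLC22A6 (OAT1) and SLC22A8 (OAT3) and the urate exchanger SLC22A12 (URAT1) were in neither list. Of the 4 carnitine and zwitterion carriers, HepG2 listed SLC22A15 and SLC22A16, and Huh7 listed SLC22A4 and SLC22A16. SLC22A5, the main carnitine carrier of most tissues, was the 1 carrier of these 4 in neither list. Among the 23 genes outside these 3 role lists, each cell line listed 8 (34.8%), and 5 were shared.

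The SLCO family had 4 of 12 genes listed in HepG2 (33.3%), 6 in Huh7 (50%) and 3 in both (25%), beside 23.9%, 21.9% and 11.4% of all protein-coding genes. The shared genes were SLCO2B1, SLCO1C1, which carries thyroxine across brain barriers, and SLCO3A1, a widely expressed carrier of prostaglandins and thyroxine. HepG2 alone listed SLCO2A1, the prostaglandin transporter that clears prostaglandins before their breakdown. Huh7 alone listed SLCO4A1, a carrier of thyroid hormone, SLCO4C1, a kidney carrier of digoxin and thyroid hormone, and SLCO1B7. In neither list were SLCO1A2, SLCO1B1, SLCO1B3, SLCO5A1 and SLCO6A1, 5 genes in all. Reads of SLCO1B7 are hard to assign: 61.2% of the 75-base stretches of its transcripts also occur in another gene, mostly a read-through gene that joins it with SLCO1B3. For SLCO1B3 that share was 52.4% and for SLCO1B1 7.05%. The calls of SLCO1B7 and SLCO1B3 are therefore uncertain, and that of SLCO1B1 less so. How reads were assigned to these genes was not tested. The read-through gene itself (ENSG00000257046) was in neither list.

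**Figure D2:**
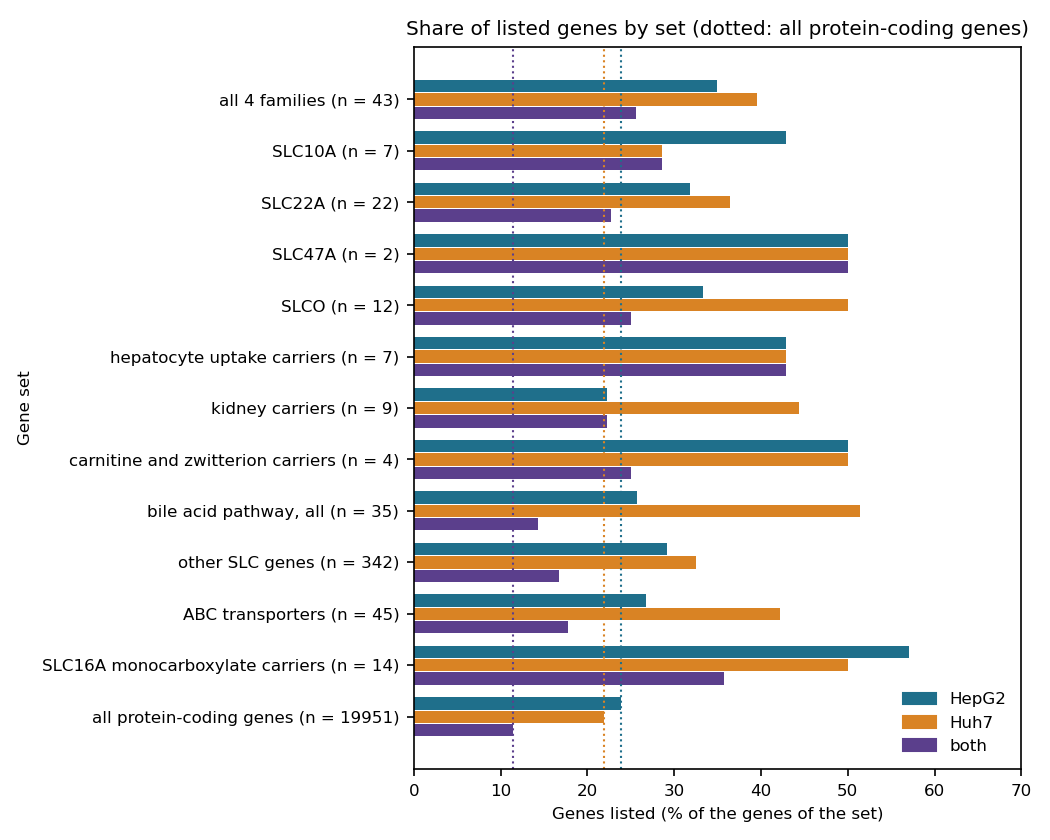
Bars give the percentage of genes of each set that were listed in HepG2, in Huh7 and in both, with the number of genes in the set after its name and dotted lines at the shares of all protein-coding genes. The 43 carriers stand at 34.9%, 39.5% and 25.6%, and the other SLC genes at 29.2%, 32.5% and 16.7%.

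Other membrane transporters were counted in the same way, as a yardstick with GO annotation of a like kind. Of 342 other SLC genes, HepG2 listed 100 (29.2%), Huh7 111 (32.5%) and both 57 (16.7%). The 45 ABC transporters had 12 listed in HepG2 (26.7%), 19 in Huh7 (42.2%) and 8 in both (17.8%). The shares of the 43 carriers lay above those of the other SLC genes by less than they lay above all protein-coding genes. Shared genes made up 57% of the other SLC genes listed in HepG2 and 51.4% of those listed in Huh7, and 66.7% and 42.1% of the ABC transporters, beside 73.3% and 64.7% for the carriers. With sets of unequal size and 1 library in each group, no difference between these shares was tested.

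Transport terms of GO group many of these carriers by substrate. Only terms that held 2 or more listed carriers in at least 1 cell line were kept. This choice can raise the shares of small terms, so the GO background is no even yardstick for them. Of the 22148 background genes of the GO tables, 21.6% were listed in HepG2 and 19.7% in Huh7. Under organic anion transport, with 462 background genes, HepG2 listed 140 genes (30.3%), 10 of them members of the 4 families, and Huh7 144 (31.2%), 12 of them members. Under sodium-independent organic anion transport, with 18 background genes, every listed gene was a member: 5 in HepG2 (27.8%) and 7 in Huh7 (38.9%), with 4 shared. SLC22A9, SLCO1C1, SLCO2B1 and SLCO3A1 were the shared ones. Organic cation transport, with 25 background genes, had 7 listed in HepG2 (28%) and 8 in Huh7 (32%). SLC22A13, SLC22A14 and SLC22A16 were listed under it in both cell lines, and SLC22A2 and SLC22A4 in Huh7.

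The next terms stand beside 21.6% of the GO background listed in HepG2 and 19.7% in Huh7. They too were kept for holding 2 or more listed carriers, which can raise their shares. In HepG2 both drug terms and carnitine transport lay below that share. Drug transmembrane transport, with 30 background genes, had 5 listed in HepG2 (16.7%) and 11 in Huh7 (36.7%), among them SLC47A2 in both and SLC22A2 in Huh7. Drug transport, its wider parent with 53 genes, had 11 listed in HepG2 (20.8%) and 16 in Huh7 (30.2%), with the same carriers. Carnitine transport, with 13 genes, had 2 listed in HepG2 (15.4%) and 3 in Huh7 (23.1%), SLC22A16 in both and SLC22A4 in Huh7. Prostaglandin transport, with 17 genes, had 7 listed in HepG2 (41.2%), including SLCO2A1 and SLCO3A1, and 6 in Huh7 (35.3%), including SLCO3A1. Thyroid hormone transport, with 10 genes, had 3 listed in HepG2 (30%) and 6 in Huh7 (60%), with SLCO1C1 in both and SLCO4A1 in Huh7. Its other listed genes were the thyroid hormone binding protein CRYM and the carrier SLC16A10 in both, and the plasma carriers TTR and SERPINA7 in Huh7.

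Terms for transporter activity were kept and counted in the same way, beside 21.6% of the GO background listed in HepG2 and 19.7% in Huh7. Their shares can be raised by the same choice. Under organic anion transmembrane transporter activity, with 185 background genes, HepG2 listed 54 (29.2%) and Huh7 58 (31.4%), of which 9 and 11 were members. Its sodium-independent counterpart, with 18 genes, had 5 listed in HepG2 (27.8%) and 7 in Huh7 (38.9%), all of them members. Organic cation transmembrane transporter activity, with 24 genes, had 9 listed in HepG2 (37.5%) and 12 in Huh7 (50%). Bile acid transmembrane transporter activity, with 18 genes, had 7 listed in HepG2 (38.9%) and 9 in Huh7 (50%), with 5 members in each. Of the 3 genes under carnitine transmembrane transporter activity, SLC22A16 was listed in both cell lines and SLC22A4 in Huh7. Of the 5 under thyroid hormone transmembrane transporter activity, 2 were listed in HepG2 and 3 in Huh7, SLCO1C1 among both and SLCO4A1 among those of Huh7.

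**Figure D3:**
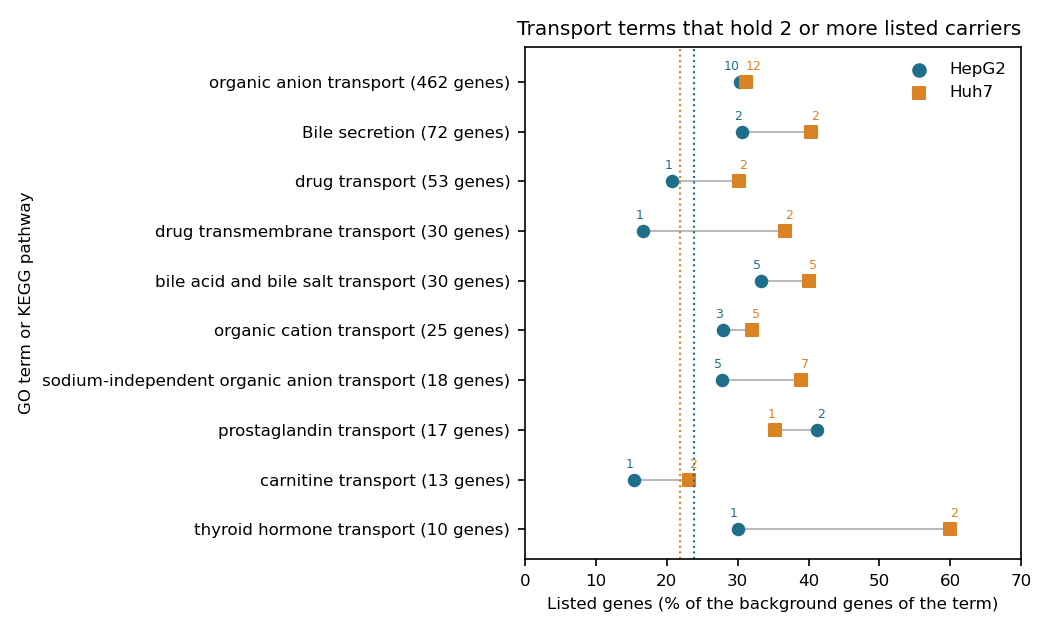
Points give the percentage of a term's background genes that were listed, circles for HepG2 and squares for Huh7, and the small number at each point is the count of listed carriers of the 4 families. Only terms with 2 or more listed carriers in a cell line were kept, which can raise the shares of small terms. Dotted lines mark 23.9% and 21.9% of all protein-coding genes. The shares of the GO background, 21.6% in HepG2 and 19.7% in Huh7, are not marked. Terms for transporter activity are not drawn, and thyroid hormone transport stands at 30% in HepG2 and 60% in Huh7.

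For bile acid and bile salt transport, with 30 background genes, HepG2 listed 10 (33.3%) and Huh7 12 (40%), beside 21.6% and 19.7% of the GO background, and 8 were shared. Members were SLC10A1, SLC10A6, SLCO1C1 and SLCO2B1 in both, SLC10A2 in HepG2 and SLCO1B7 in Huh7. The other shared genes were AKR1C4, the bile acid receptor NR1H4 (FXR), SLC51B, which encodes a subunit of the basolateral bile acid exporter, and the lipid-binding protein STARD5. Under this term, the bile salt export pump ABCB11, AKR1C1 and CEACAM1 were listed in Huh7 only. Within the KEGG pathway Bile secretion, 22 of 72 genes were listed in HepG2 (30.6%) and 29 in Huh7 (40.3%), with 12 shared; the KEGG tables state no background total to set beside these shares. It held SLC10A1 in both lists, SLC10A2 in that of HepG2 and SLCO1B7 in that of Huh7. This pathway and the bile acid transport term were kept for holding 2 or more listed carriers, which can raise their shares.

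The genes that make, export and sense bile acids were taken as a list of 35. HepG2 listed 9 (25.7%), Huh7 18 (51.4%) and both 5 (14.3%), beside 23.9%, 21.9% and 11.4% of all protein-coding genes. The shared genes were 55.6% of those listed in HepG2 and 27.8% of those listed in Huh7, beside 47.7% and 52.2% for all protein-coding genes and 73.3% and 64.7% for the carriers. The 5 shared genes were HSD3B7 and AKR1C4 of bile acid synthesis, SLC51B of export, and the regulators NR1H4 and HNF4A. Of 13 genes of synthesis and conjugation, HepG2 listed 3 and Huh7 6. CYP7A1, the rate-limiting enzyme of the classical pathway, was listed in HepG2 only, whereas CYP7B1 of the alternative pathway and BAAT, which conjugates bile acids with glycine or taurine, were listed in Huh7 only.

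Of 12 export genes, HepG2 listed 3 (25%), Huh7 4 (33.3%) and both 1 (8.33%), beside 23.9%, 21.9% and 11.4% of all protein-coding genes. ABCB11, the canalicular bile salt pump, was listed in Huh7 only, and ABCB4, the canalicular phospholipid floppase, in HepG2 only. Of 10 regulators, HepG2 listed 3 (30%), Huh7 8 (80%) and both 2 (20%), beside the same shares of all protein-coding genes. NR0B2 (SHP), which represses bile acid synthesis downstream of NR1H4, was listed in Huh7 only, as was the FGF19 axis with the ligand FGF19, its receptor FGFR4 and the coreceptor KLB. Under the GO term bile acid metabolic process, 14 of 47 genes were listed in HepG2 (29.8%) and 18 in Huh7 (38.3%). The GO background stood at 21.6% and 19.7%. Of the listed genes 6 were shared, and no member of the 4 families was among them.

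**Figure D4:**
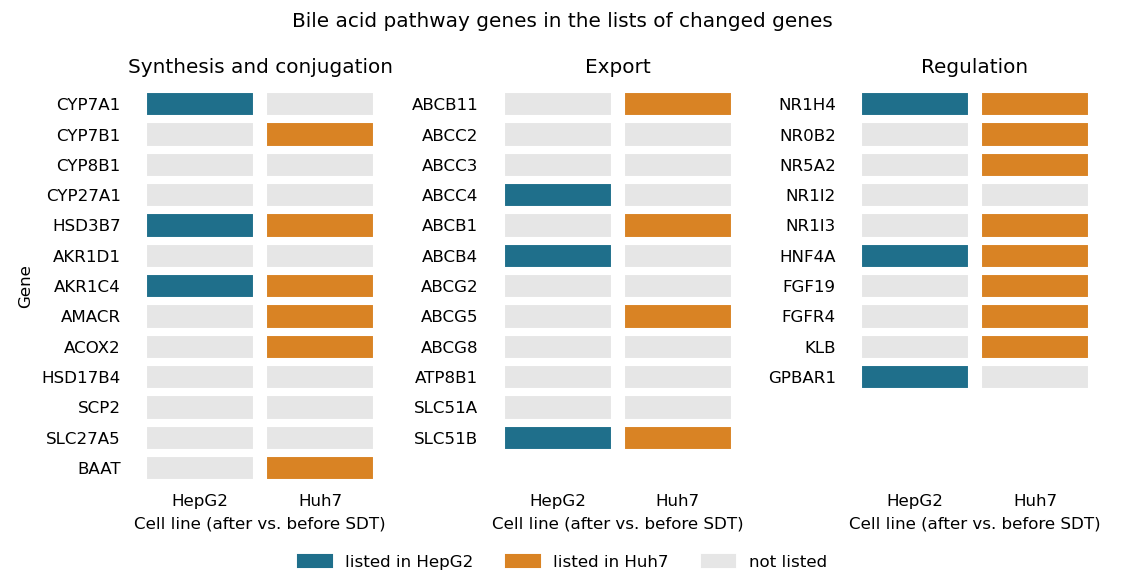
Each row is 1 of the 35 genes of bile acid synthesis and conjugation, export or regulation, with a coloured tile where the gene was listed in HepG2 or Huh7 after vs. before SDT and a grey tile where it was not. HepG2 lists 9 and Huh7 18 of them, and 8 of the 10 regulators are listed in Huh7. Of all protein-coding genes, HepG2 lists 23.9% and Huh7 21.9%.

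Many of these carriers arose by tandem duplication and still lie side by side. In the annotation, 25 of the 43 genes formed 9 clusters in which at most 1 other protein-coding gene lay between neighbours. The cluster of SLC22A18AS and SLC22A18 is an antisense gene beside a carrier rather than a pair of related carriers. Of the 25 clustered genes, 11 were listed at least once (44%), as were 10 of the 18 genes that lay alone (55.6%), beside 34.3% of all protein-coding genes. Among 13 pairs of direct neighbours, 7 had the same listing pattern, and in 5 of the pairs neither gene was listed. SLC22A18AS with SLC22A18 is among these 5. Since 22 of the 43 carriers were in neither list, some pairs can match by frequency alone. Neighbouring pairs of other genes were not counted, so these matches have no yardstick. The 2 matching pairs with listed genes were SLC22A13 with SLC22A14 and SLC22A25 with SLC22A9.

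SLC22A13 and SLC22A14 lie 3.54 kb apart on chromosome 3, and both were listed in both cell lines. On chromosome 6, SLC22A2 was listed in Huh7 only, while SLC22A3, 70.6 kb away, was in neither list. On chromosome 11 a cluster of 6 genes spans 474 kb from SLC22A6 to SLC22A9. Its SLC22A6, SLC22A8 and SLC22A24 were in neither list, SLC22A10 was listed in Huh7, and SLC22A25 and SLC22A9 in both. SLC22A25 lies within the bounds of SLC22A10 on the opposite strand, with 187 shared exon bases. The 5 SLCO1 genes on chromosome 12 span 724 kb, and of these SLCO1C1 was listed in both cell lines, SLCO1B7 in Huh7, and SLCO1B3, SLCO1B1 and SLCO1A2 in neither. On chromosome 5, SLC22A4 was listed in Huh7 and its close relative SLC22A5, at 77.1% protein identity, was not.

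**Figure D5:**
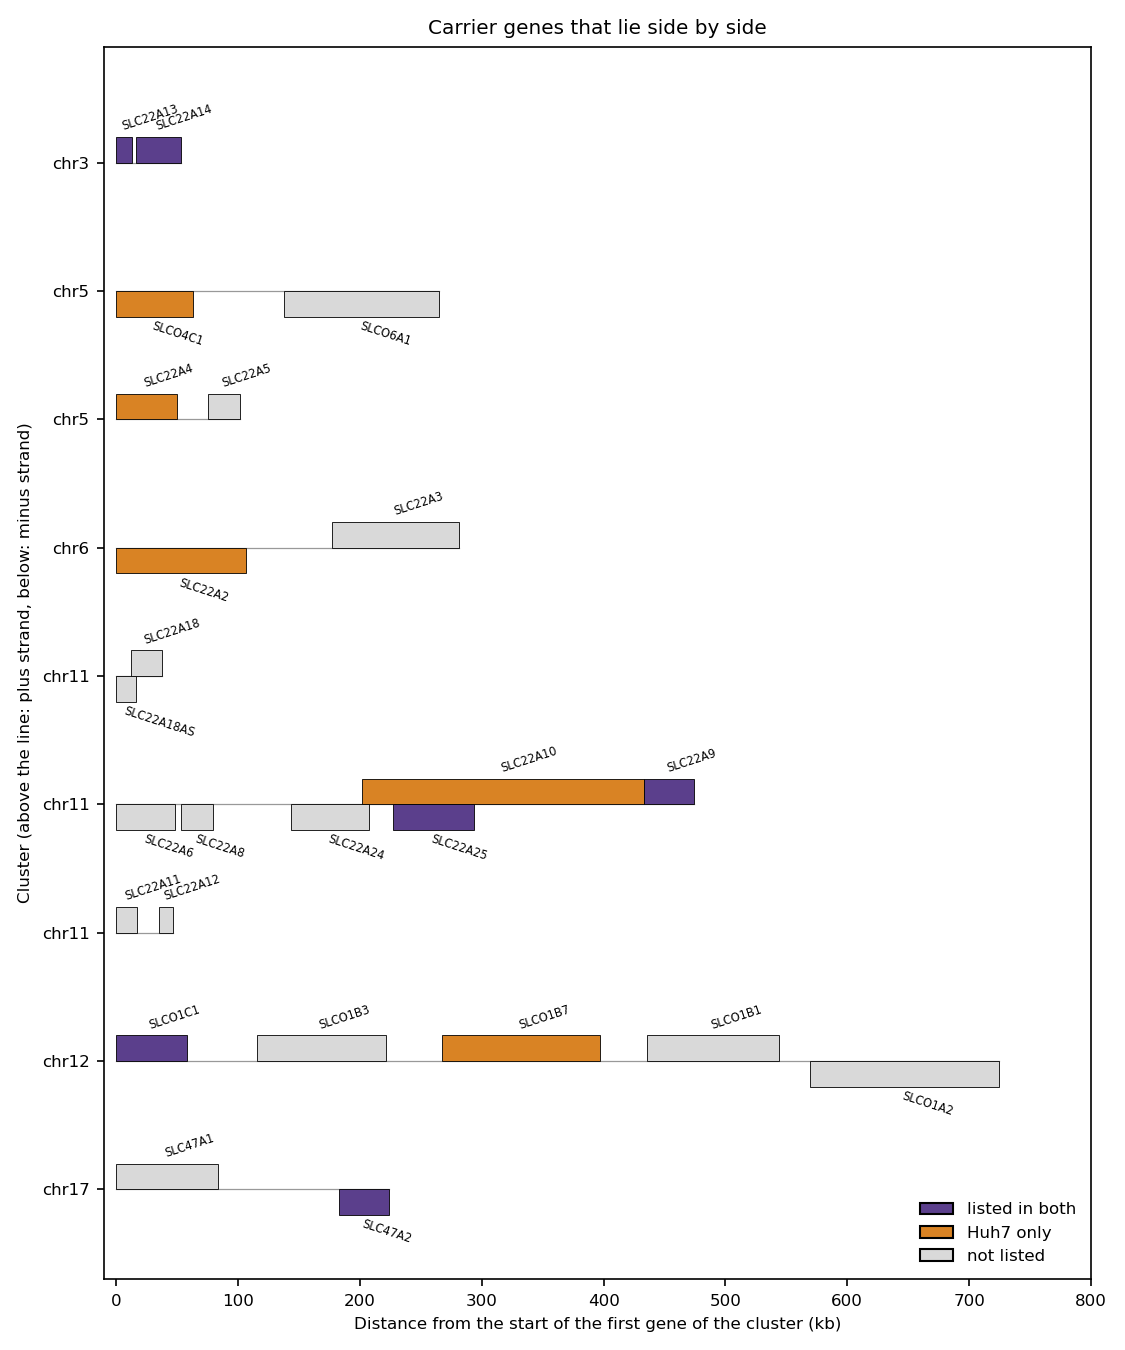
Boxes are genes of 9 clusters, drawn to scale in kb from the start of the first gene of each cluster, above the line for the plus strand and below it for the minus strand. Colour gives the listing pattern, and the pair SLC22A13 and SLC22A14 on chromosome 3 is the 1 cluster listed whole in both cell lines.

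The longest transcripts of the 21 listed carriers had a median length of 3114 bases, beside 2662 bases for the 22 carriers in neither list. For all protein-coding genes these medians were 3302 bases for those listed at least once and 3071 for the rest. The 4 carriers of the HepG2 list alone had a median of 5680 bases and the 6 of the Huh7 list alone 2663. For all protein-coding genes of these patterns the medians were 3367 and 3230 bases. The 11 carriers of both lists had a median of 2555 bases, from 1502 for SLC10A6 to 5875 for SLCO2B1, beside 3294 for all protein-coding genes of both lists. Whether length had a part in the calls was not tested.

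Sequence shared with other genes was rare outside the SLCO1B genes. Of the 43 carriers, 35 had no 75-base stretch in common with another gene, and 3 had more than 1% of their stretches in common. The closest protein pairs were SLCO1B1 with SLCO1B3 at 79.9% identity, SLCO1B3 with SLCO1B7 at 78% and SLC22A4 with SLC22A5 at 77.1%. SLC22A25 and SLC22A9, both listed in both cell lines, were 72.2% identical. Exons of SLC22A23 overlap those of PSMG4 on the opposite strand over 15.6% of their bases. The libraries kept the strand of the RNA, but whether the counting used it is not given in the sources used here.

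GO also places carriers on a membrane, from evidence in any tissue, which need not hold for these cells. Under plasma membrane, with 6311 background genes, HepG2 listed 1461 (23.2%) and Huh7 1408 (22.3%), beside 21.6% and 19.7% of the GO background, with 12 and 15 of the carriers among them. The term basolateral plasma membrane held SLC10A1 and SLC22A9 in both cell lines, and SLCO4C1 in Huh7. The term apical plasma membrane held SLC22A13 and SLCO2B1 in both, SLC10A2 in HepG2 and SLC22A4 in Huh7. Of all 228 basolateral genes, 77 were listed in HepG2 (33.8%) and 75 in Huh7 (32.9%), and of the 329 apical genes 102 (31%) and 99 (30.1%). These terms were chosen after their values were seen.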

How the data were processed

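Ribosomal RNA was removed from total RNA of HepG2 and Huh7 cells, and stranded libraries were made, 1 for each of the 4 groups. The submitters' processing notes name HISAT2, Bowtie2 2.2.8, StringTie 1.3.1 and Cuffdiff 2.1.1. The authors took mRNAs with an adjusted p-value under 0.05 as differentially expressed. For these calls the paper cites Cuffdiff in one section and another tool elsewhere, and the tables do not show which was used. The lists counted in the paper are longer than those pooled here. The authors then analysed GO terms with GOseq and KEGG pathways with KOBAS. The genome build and annotation are not given in the sources used here. The authors deposited, for each comparison, a GO and a KEGG table with gene counts, gene identifiers and p-values for each term. The p-values were not used, and each count gives genes rather than reads.

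Identifiers were pooled over all GO terms of a comparison, 4783 genes for B vs. A and 4369 for D vs. C, both equal to the stated list size. Members were found by symbol in GENCODE 29, counted by family, role, term and genome neighbour, and set beside 19951 protein-coding genes. The reading and counting steps were tested on simulated data. Proteins translated from the annotation were aligned with Biopython 1.88. Transport terms were named where they held 2 or more listed members, and pathway genes where listed in both cell lines or best known. A carrier, a pathway gene and a promoter motif are not reported here, and the counts of carriers and of the 35 pathway genes leave them out, while totals of terms and of all protein-coding genes are those of the full lists. The members and lists were chosen with earlier results of these data known. Alternatives were the KEGG lists, 1 GO domain, other symbols and smaller member sets.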

Additional observations from a re-analysis of the deposited data

How the results depend on the processing

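Counts and shares were recomputed in 168 combinations of a result and an alternative, and 133 stayed within 1.5 times of the value given above. Joining the GO and KEGG lists, 1 GO domain alone, symbols of another table, the background of the GO tables, or leaving out SLC22A18AS moved none by more. The last of these, and all alternatives for the bile acid pathway, other SLC, ABC and SLC16A sets, were chosen after seeing the data. SLC22A18AS was in neither list, so leaving it out could not change a count of listed genes. Its 15 of the 168 combinations were thus fixed in advance. No carrier stood in a KEGG list without standing in a GO list, so joining the lists could not change the counts of carriers either. With the KEGG lists alone, which hold 1693 genes in HepG2 and 1636 in Huh7, 3 carriers were listed in HepG2, 3 in Huh7 and 2 in both, and of the hepatocyte uptake carriers 1, 1 and 1. By family these lists held 0 SLC22A, 0 SLC47A and 1 SLCO genes in HepG2. In Huh7 they held 1 SLC10A, 0 SLC22A, 0 SLC47A and 2 SLCO genes, and in both 1 SLC10A, 0 SLC22A, 0 SLC47A and 1 SLCO. The KEGG table takes only genes assigned to a pathway. The share of all 19951 protein-coding genes in the KEGG lists was not computed. Whether the carriers lie above it there cannot be read from these counts. Among the 21 carriers listed at least once, which certainly carry an annotation, the shares were 71.4% in HepG2, 81% in Huh7 and 52.4% in both, since the unlisted genes leave the denominator. Any set rises in this way: of 6852 protein-coding genes listed at least once, HepG2 listed 4768, Huh7 4360 and both 2276. Of the carriers listed at least once, the shares for SLC10A were 100%, 66.7% and 66.7%, for SLC22A 70%, 80% and 50%, for SLC47A 100% each, and for SLCO 57.1%, 85.7% and 42.9%. Without the 16 carriers that have exon bases in common with another gene or at least 75% protein identity with another carrier, Huh7 listed 11 carriers in place of 17, with 5 SLC22A genes in place of 8 and 3 SLCO genes in place of 6, because SLC22A4, SLC22A10, SLC22A25, SLCO1B7, SLCO3A1 and SLCO4A1 were among those left out. The shares were then 44.4% in HepG2, 40.7% in Huh7 and 33.3% in both, in place of 34.9%, 39.5% and 25.6%. With 1 library in each group the calls have no replicate check, and the lists hold no depth.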

Other observations

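LND, the inhibitor carried by the nanobubbles, is known to block proton-linked monocarboxylate carriers, which move lactate and pyruvate and belong to the SLC16A family. That family also holds carriers of other substrates, so its shares are not shares of LND targets. Of 14 SLC16A genes, HepG2 listed 8 (57.1%) and Huh7 7 (50%), with 5 in both (35.7%), beside 23.9%, 21.9% and 11.4% of all protein-coding genes. The 5 shared genes, named after their values were seen, were SLC16A4, SLC16A6, SLC16A7, SLC16A9 and SLC16A10. SLC16A7 encodes the lactate and pyruvate carrier MCT2, SLC16A9 a carnitine carrier and SLC16A10 a carrier of aromatic amino acids and thyroid hormone. SLC16A3, the lactate exporter MCT4, was listed in HepG2 only, and SLC16A1, the widely expressed MCT1, in neither cell line. The lists give no direction for any of these genes.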
